A study of Mus musculus with 42 samples.

Results

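The genes that choose the sites of programmed meiotic DNA breaks and make those breaks were followed in spermatogonia of control and mutant mice. The mutants lose *Chd8*, which encodes a chromatin remodeler, in their germ cells. The 10 genes were chosen by name, with earlier results of these data known, so counts of calls among them are descriptive. *Prdm9*, *Hells* and *Zcwpw1* act at recombination hotspots, and *Spo11* and *Top6bl* encode the break-forming complex. *Rec114*, *Mei4*, *Mei1*, *Iho1* and *Ankrd31* are needed for that complex to act. Of the 10 genes, 9 were matched by gene ID to the 27179 genes of the count table, *Top6bl* under the symbol *Gm960*. All 9 passed the filter on low counts in every comparison. *Ankrd31* was not analysed here.

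Meiotic recombination starts with DNA double-strand breaks that the cell makes on purpose. In mice PRDM9 binds DNA through its zinc fingers and methylates lysines of histone H3 at the chosen hotspots, and the SPO11 complex, gathered on the axes of the chromosomes, then cuts there. Breaks form in early meiotic prophase, whereas many of the transcripts involved already appear in spermatogonia that are about to enter meiosis.

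The RNA-seq data comprised 12 libraries of cells from C57BL/6J testes at 10 days postpartum (dpp), with 3 libraries in each of 4 groups. Control pups were *Ddx4-Cre*; *Chd8* +/F and mutant pups (CKO) were *Ddx4-Cre*; *Chd8* F/-, so that all groups carry Cre and at least 1 floxed *Chd8* allele, and the Ddx4 promoter limits Cre to germ cells. The null allele of the mutants is inherited, so their somatic cells lack 1 copy of *Chd8*. In germ cells Cre acts on the floxed allele of the controls as well, which leaves them 1 copy of *Chd8*, against none in the mutants. Cells were bound to magnetic beads by c-Kit, an antigen of differentiating spermatogonia, and then, from the cells that did not bind, by Thy1, an antigen of mostly undifferentiated spermatogonia. Values are CPM (counts scaled to a fixed library total) after TMM scaling over all genes, and library totals lay between 32266861 and 45396233 counts, with both reads of a pair counted, so independent fragments are fewer. The methods give 3 pups for each analysis but not whether a library came from 1 pup or from pooled pups, so the p-values measure the spread between these libraries, which may be partly technical. *Chd8* itself had 270 ± 9.41 CPM in the controls and 274 ± 20.7 CPM in the Thy1+ mutants, and 281 ± 22.0 and 306 ± 9.49 CPM in c-Kit+ libraries (SD, n = 3). Only some of its exons are removed, so these counts do not check the genotype. Summed over 5 genes each, markers of undifferentiated spermatogonia had 350 to 491 CPM in control Thy1+ and 127 to 139 CPM in control c-Kit+ libraries, and markers of differentiating spermatogonia had 472 to 1000 and 1490 to 1690 CPM, in the order the labels give. These lists hold *Thy1* and *Kit*, the genes of the sorting antigens, so part of this order comes from the sort itself. *Kit* alone had 171 to 393 CPM in control Thy1+ and 626 to 716 CPM in control c-Kit+ libraries. Transcripts of somatic testis cells were present in both populations: 4 stromal markers together had 6070 to 7830 CPM in control Thy1+ and 1100 to 1290 CPM in control c-Kit+ libraries.

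In the coordinates of the count table (mm10), *Prdm9* (gene ID 213389) lies on the minus strand at chr17:15543079-15563323 with 10 exons, *Spo11* (26972) at chr2:172979842-172993576 with 13 exons, and *Top6bl* (381196) on the minus strand at chr19:4625841-4698668 with 15 exons. *Hells* (15201) lies on the same chromosome as *Top6bl*, on the plus strand at chr19:38930990-38968277 with 22 exons, and *Zcwpw1* (381678) at chr5:137787802-137822621 with 17 exons. *Mei1* (74369) lies at chr15:82070117-82126814 with 31 exons. The remaining 3 genes are all on chromosome 9: *Rec114* (73673) on the minus strand at chr9:58652856-58741559 with 6 exons, *Mei4* (75033) at chr9:81863744-82027491 with 5 exons, and *Iho1* (434438) on the minus strand at chr9:108403621-108428482 with 7 exons. Exons of *Zcwpw1* share 468 bases with *Pilra* and those of *Rec114* share 24 bases with *Nptn*, each on the opposite strand. Counting used no strand, so reads in those bases cannot be assigned to either gene.

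The 250 bases before the RefSeq start sites of these genes (GRCm38.p6, the mm10 primary assembly) were searched on both strands. The motifs were those of factors that act at meiotic entry or in the cell cycle, and their part in any change was not tested. The letters searched were CACGTG (E-box), CNCCTCAG (known from promoters bound by STRA8) and GCGGGAA (a core of E2F sites). There were 10 such windows for 8 genes, and *Spo11* had none. A match was found in 3 windows, which are shown 5′ to 3′ on the strand of the gene with the matched letters in capitals, from chr17:15564355-15564604 for *Prdm9*, chr9:58741560-58741809 for *Rec114* and chr19:38930740-38930989 for *Hells*.
Prdm9: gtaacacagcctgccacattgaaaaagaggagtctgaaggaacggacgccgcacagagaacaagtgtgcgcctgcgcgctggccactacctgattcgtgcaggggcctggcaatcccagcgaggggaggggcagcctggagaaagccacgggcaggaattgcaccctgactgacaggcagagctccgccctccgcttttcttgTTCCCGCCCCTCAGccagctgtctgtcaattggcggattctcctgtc
Rec114: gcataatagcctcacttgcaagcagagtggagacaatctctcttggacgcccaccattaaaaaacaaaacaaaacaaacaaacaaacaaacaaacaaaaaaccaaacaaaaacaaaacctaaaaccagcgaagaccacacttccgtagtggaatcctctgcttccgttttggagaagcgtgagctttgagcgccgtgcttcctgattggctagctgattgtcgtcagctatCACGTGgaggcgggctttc
Hells: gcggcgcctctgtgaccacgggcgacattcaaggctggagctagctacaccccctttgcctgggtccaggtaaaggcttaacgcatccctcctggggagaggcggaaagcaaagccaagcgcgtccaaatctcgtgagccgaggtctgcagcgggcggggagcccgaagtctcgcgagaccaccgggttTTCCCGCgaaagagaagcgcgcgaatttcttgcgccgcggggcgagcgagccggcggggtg
In *Prdm9* the capitals mark a GCGGGAA match on the opposite strand, 47 to 41 bases before the start, and a CNCCTCAG match 41 to 34 bases before it, which share 1 base. This window belongs to the more upstream RefSeq start of *Prdm9*, 1031 bases from the end of the gene in the count table, and the window at the other start held no match. *Rec114* held CACGTG 19 to 14 bases before its start, and *Hells* held a GCGGGAA match on the opposite strand 61 to 55 bases before its start. Of 32851 RefSeq promoter windows, 6.02% held CACGTG, 6.42% held CNCCTCAG and 3.82% held GCGGGAA. *Prdm9*, which changed most between genotypes in c-Kit+ cells, and *Hells*, which was not called there, thus share a motif, and the windows of *Top6bl*, *Mei1*, *Iho1*, *Zcwpw1* and *Mei4* held none of the 3. The RefSeq starts used for *Mei1* and *Iho1* lay 12359 and 3344 bases from the 5′ ends of these genes in the count table. The bases directly before those ends were therefore not searched. The *Hells* window had 28 CG dinucleotides, the *Prdm9* window 13 and the *Top6bl* window 2, against a median of 6 over all windows.

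Per length, the hotspot factors other than *Prdm9* were the most abundant of the genes in control c-Kit+ cells. *Hells*, a remodeler that opens chromatin with PRDM9 and also acts in dividing cells, had 220.8 ± 25.6 CPM per kilobase of exon, and *Zcwpw1*, a reader of the histone marks that PRDM9 leaves, had 109.6 ± 20.8 CPM per kilobase (SD, n = 3). *Iho1* (28.0 ± 5.52), *Rec114* (25.9 ± 2.29), *Prdm9* (21.6 ± 7.28) and *Mei1* (21.3 ± 2.39 CPM per kilobase) followed, and neighbours in that order overlapped between libraries. *Mei1* was separate from the lowest 3 genes, *Top6bl* (9.67 ± 2.18), *Spo11* (6.66 ± 2.05) and *Mei4* (5.39 ± 0.285 CPM per kilobase), whose neighbours overlapped again. *Spo11* and *Top6bl* encode subunits of one complex, and the level of *Spo11* per length was 0.688 times that of *Top6bl*. In control Thy1+ cells *Hells* (128 ± 33.0 CPM per kilobase) and *Zcwpw1* (67.1 ± 15.9 CPM per kilobase) were again the 2 highest genes and separate from the rest, while each pair of neighbours among the other 7, from *Rec114* (18.5 ± 4.75) to *Mei4* (3.30 ± 0.952 CPM per kilobase), overlapped.

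**Figure D1:**
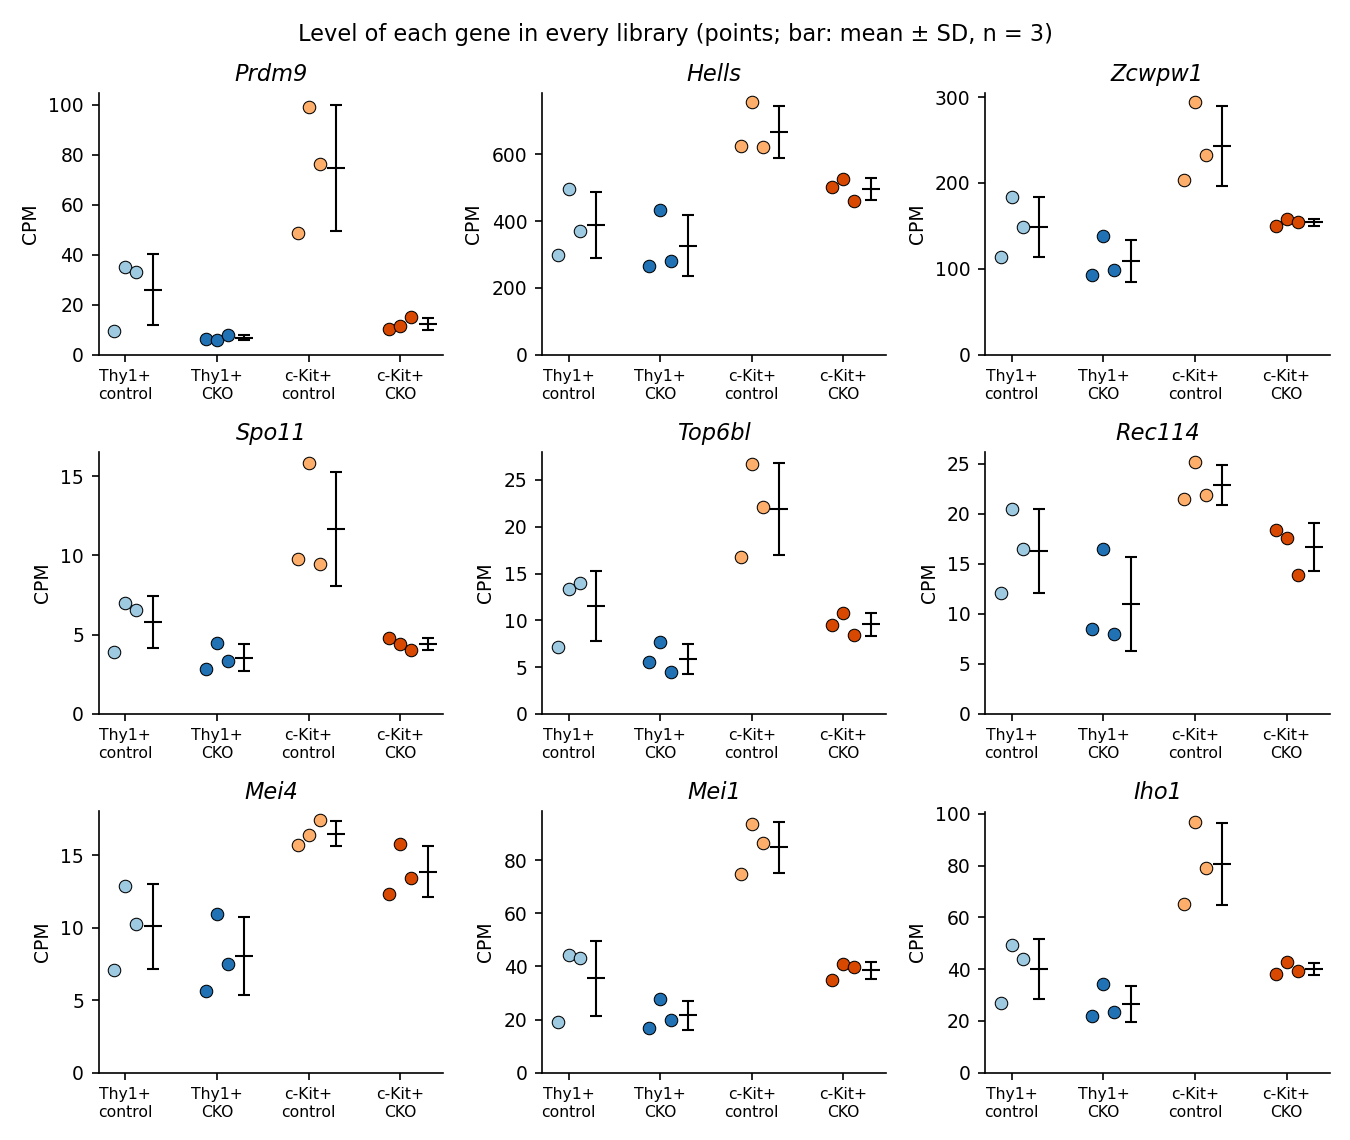
Level of each gene (CPM after TMM scaling, linear axes from 0) in every library of the 4 groups; points are libraries in the order of their replicate numbers and the bar beside them is the mean ± SD (n = 3). In c-Kit+ cells all mutant points lie below all control points for every gene but *Mei4*, whereas in Thy1+ cells only *Prdm9* shows this.

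Most of these transcripts were lower in mutant than in control c-Kit+ cells, and *Prdm9* changed most among them. In edgeR's quasi-likelihood fit of 17134 genes, 7 of 9 genes were called lower and 0 higher (a call needed a Benjamini-Hochberg adjusted p (FDR) below 0.05 and a log2 fold change beyond 0.5 in either direction), while 7.41% of all genes tested were called lower. Over the 9 genes the median log2 fold change was −1.06, and over all genes it was 0.01. Mutant libraries were all below control libraries for 8 of 9 genes, all but *Mei4*, against 20.6% of all genes. In these sorted bulk samples, fewer cells of a type and less RNA per cell cannot be told apart.

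*Prdm9*, the methyltransferase that chooses the hotspots, had 48.7, 99.0 and 76.2 CPM in the control c-Kit+ libraries of replicates 1, 2 and 3, and 10.5, 11.6 and 14.9 CPM in the mutant libraries. No mutant library came near the lowest control library. Its mean in mutant cells was 16.5% of the control mean, and it fell by 2.66 on the log2 scale (SE 0.24, FDR = 1.4e-04, edgeR). *Zcwpw1* had 203 to 294 CPM in the controls and 150 to 158 CPM in the mutants and fell by 0.72 (SE 0.11, FDR = 9.9e-04, edgeR). *Hells* had 620 to 756 CPM in the controls and 461 to 525 CPM in the mutants, and its log2 fold change of −0.48 (SE 0.08, FDR = 0.0016, edgeR) was under the minimum size, so it was not called. The hotspot genes therefore differed among themselves: the mutant mean was 63.3% of the control mean for *Zcwpw1* and 74.4% for *Hells*.

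Both genes of the cutting complex fell. *Spo11*, the catalytic subunit, had 9.79, 15.9 and 9.44 CPM in control libraries and 4.78, 4.38 and 4.05 CPM in the mutants of replicates 1, 2 and 3, from 140 to 554 counts a library. Its log2 fold change was −1.47 (SE 0.21, FDR = 6.5e-04, edgeR). *Top6bl*, its partner subunit, had 16.8, 26.7 and 22.2 CPM in the controls and 9.51, 10.8 and 8.40 CPM in the mutants, and it fell by 1.25 (SE 0.17, FDR = 5.4e-04, edgeR). For either gene the highest mutant library lay well below the lowest control library, and the mutant means were 37.7% (*Spo11*) and 43.7% (*Top6bl*) of the control means.

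The accessory genes split. *Mei1*, whose product works with MEI4 and REC114, had 74.6, 93.5 and 86.2 CPM in the controls and 34.9, 40.9 and 39.9 CPM in the c-Kit+ mutants and fell by 1.19 (SE 0.10, FDR = 1.3e-04, edgeR). *Iho1*, whose product is brought to chromosome axes by HORMAD1, had 65.4, 97.0 and 79.1 CPM in the controls and 38.2, 42.9 and 39.4 CPM in the mutants and fell by 1.06 (SE 0.13, FDR = 3.3e-04, edgeR). The partners REC114 and MEI4, which form foci on the axes, had transcripts with smaller fold changes. *Rec114* had 21.5 to 25.2 CPM in the controls and 13.9 to 18.4 CPM in the mutants and fell by 0.52 (SE 0.13, FDR = 0.0094, edgeR), close to the minimum size. *Mei4* had 15.7 to 17.4 CPM in the controls and 12.4 to 15.8 CPM in the mutants, with a log2 fold change of −0.31 (95% confidence interval −0.58 to −0.04, FDR = 0.0705, edgeR), and was not called. It was the only one of the 9 genes whose genotypes overlapped, by mutant replicate 2 and control replicate 1.

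The calls near the minimum size depended on single libraries. *Rec114* was no longer called without control replicate 2 (−0.45) or mutant replicate 3 (−0.41), and *Hells* was called without control replicate 1 (−0.53), control replicate 3 (−0.53) or mutant replicate 2 (−0.53). No other call in c-Kit+ cells changed when 1 library was left out.

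Beside these changes, markers of other cells moved as well, in a fit where 2542 of 17134 genes were called higher and 1270 lower. In mutant c-Kit+ libraries 5 of 5 Sertoli markers were called higher (sum 138 to 364 CPM in the controls and 592 to 644 CPM in the mutants), 4 of 4 stromal markers (1100 to 1290 and 1920 to 2530 CPM), 4 of 4 endothelial markers (49.2 to 68.2 and 101 to 160 CPM), 3 of 4 peritubular myoid markers (36.4 to 51.8 and 82.3 to 103 CPM) and 3 of 5 Leydig markers (584 to 1170 and 1080 to 1910 CPM). The 4 macrophage markers had 8.48 to 22.6 CPM in the controls and 19.0 to 30.6 CPM in the mutants, with 0 called. With the replicate number as a block 5 of 5 Leydig and 2 of 4 macrophage markers were called higher by edgeR, as were 2705 of 17134 genes. Of 7 germ cell markers 1 was called lower, and their sum was 2410 to 2860 CPM in the controls and 1880 to 2180 CPM in the mutants. Of 5 markers of differentiating spermatogonia 1, *Stra8*, was called lower (sum 1490 to 1690 and 1290 to 1490 CPM), and of 5 markers of undifferentiated spermatogonia 1, *Etv5*, was called higher (sum 127 to 139 and 149 to 153 CPM). *Etv5* alone had means of 17.2 CPM in the controls and 37.9 CPM in the mutants (log2 fold change 1.08). The others were not called, with *Gfra1* (−0.20) and *Zbtb16* (−0.09) below 0 and *Id4* (0.20) and *Thy1* (0.32) above 0. No marker of any list was at 0 in all libraries of a group, and the part of the somatic markers in the differences was not tested.

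Since the genes are expressed by germ cells (*Hells* also acts in dividing cells), the comparison was repeated with libraries scaled to the 7 germ cell markers. In c-Kit+ cells the log2 fold changes of these markers ran from −0.75 (*Tex14*) to −0.19 (*Tdrd1*) before this scaling. A change of the markers per cell would enter the scale, here and in the other comparisons, and was not tested. This limits what calls lost under it can mean. Scaling to the markers moved the median log2 fold change of all genes by 0.36 and their calls from 1270 lower and 2542 higher to 455 lower and 5419 higher. *Prdm9* (−2.27), *Spo11* (−1.10), *Top6bl* (−0.89), *Mei1* (−0.83) and *Iho1* (−0.70) were still called lower, with FDR from 3.9e-05 to 9.3e-04 by edgeR. *Zcwpw1* (−0.35), *Rec114* (−0.16) and *Hells* (−0.12) were not called, and *Mei4* turned to 0.04. With this scaling 5 of 9 genes were thus called in place of 7, while 2.66% of all genes were called lower.

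**Figure D2:**
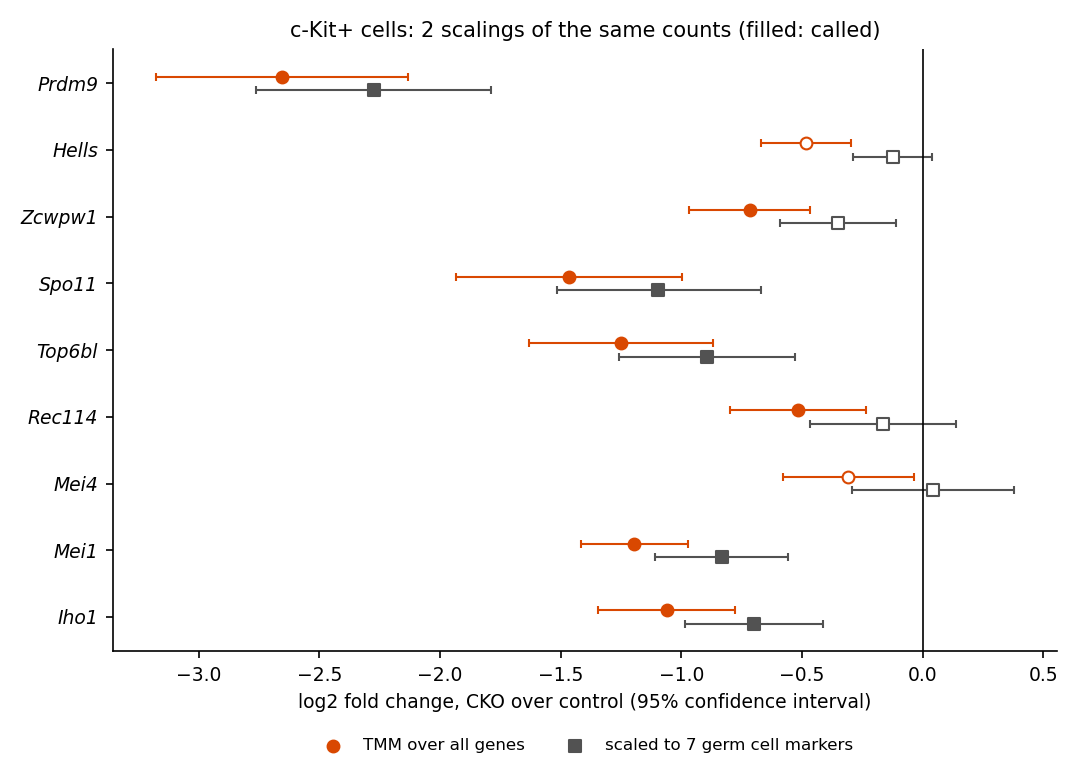
Log2 fold change (mutant over control c-Kit+ cells) of each gene with its 95% confidence interval under 2 scalings of the same counts; filled symbols are called by edgeR. Scaling to germ cell markers shifts every gene towards higher values, and 5 genes are called with both scalings.

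A ratio within a library does not depend on the scaling. *Prdm9* was therefore set against the geometric mean of the other 8 genes, a measure chosen after their values were seen. This ratio was 0.990, 1.50 and 1.40 in control and 0.330, 0.338 and 0.493 in mutant c-Kit+ libraries, and 0.456, 0.914 and 0.989 in control and 0.382, 0.219 and 0.433 in mutant Thy1+ libraries. Groups did not overlap in either population, though in Thy1+ cells the nearest libraries were at 0.456 and 0.433. Each comparison had p = 0.1 in an exact permutation test (two-sided), the smallest that 3 against 3 libraries allow. *Prdm9* was known to have the largest fall in both populations, so a lower ratio was fixed in advance. The test therefore adds no support. In the order per length, *Prdm9* was the fifth gene in control and the eighth in mutant c-Kit+ cells, at 3.57 ± 0.671 CPM per kilobase, between *Top6bl* (4.23 ± 0.528) and *Spo11* (2.51 ± 0.208 CPM per kilobase).

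In Thy1+ cells the same genes were lower on average in mutant libraries, but the libraries of a group varied widely and 0 of 9 genes were called by edgeR (quasi-likelihood), as was 0% of 17416 genes. All 9 log2 fold changes were below 0 (median −0.59, against 0.02 for all genes), and 3 genes had an unadjusted p under 0.05: *Prdm9*, *Spo11* and *Top6bl*. This number was 8 without mutant replicate 2, 7 without control replicate 1, 2 without mutant replicate 1 or control replicate 2, 1 without replicate 3 of either genotype, and 9 with the replicate number as a block. Of all 17416 genes, 2151 had an unadjusted p under 0.05 in the reported edgeR fit and 6965 with the replicate number as a block. The edgeR exact test and DESeq2 each called 1 gene, *Prdm9*, and 1.57% and 1.9% of all genes as lower. Libraries with the same replicate number deviated together, and with the replicate number as a block 6 of 9 genes were called lower, against 4.92% of all genes, while 5 of 5 Sertoli markers were called higher, as were 558 of 17416 genes.

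*Prdm9* had 9.69, 35.2 and 33.2 CPM in the controls and 6.49, 6.06 and 7.84 CPM in the Thy1+ mutants of replicates 1, 2 and 3. It was the only one of the 9 genes whose genotypes did not overlap, and mutant libraries were all below control libraries for 10.7% of all genes. Its control libraries were uneven, replicate 1 being close to the mutant level. The log2 fold change was −1.93 (SE 0.44, FDR = 0.22, edgeR), with the replicate number as a block −1.77 (SE 0.24, FDR = 6.1e-05, edgeR), and without control replicate 1 −2.33 (FDR = 0.0074, edgeR).

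*Spo11* had 3.92, 6.97 and 6.53 CPM in the controls and 2.82, 4.46 and 3.34 CPM in the Thy1+ mutants, from 103 to 257 counts. *Top6bl* had 7.16, 13.4 and 14.0 CPM in the controls and 5.57, 7.64 and 4.47 CPM in the mutants. For both, only control replicate 1 fell within the range of the mutant libraries. The log2 fold changes were −0.70 (SE 0.29, FDR = 0.395) for *Spo11* and −0.95 (SE 0.31, FDR = 0.325) for *Top6bl*, and −0.69 (FDR = 0.0118) and −0.92 (FDR = 0.0017) with the replicate number as a block (edgeR).

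*Mei1* had 19.1, 44.1 and 43.3 CPM in the controls and 17.0, 27.6 and 20.0 CPM in the Thy1+ mutants, and *Iho1* had 27.0, 49.4 and 43.8 CPM in the controls and 21.8, 34.3 and 23.3 CPM in the mutants. In each same-numbered pair the mutant library was the lower one for both. With the replicate number as a block, *Mei1* (−0.65, FDR = 0.0011), *Iho1* (−0.57, FDR = 4.4e-04) and *Rec114* (−0.60, FDR = 0.0031) were called by edgeR, whereas *Zcwpw1* (−0.43, FDR = 8.0e-05) and *Hells* (−0.24, FDR = 0.0029) stayed under the minimum size and *Mei4* (−0.33, FDR = 0.0759) missed the FDR threshold. *Rec114* ranged from 12.1 to 20.5 CPM in the controls and from 8.01 to 16.5 CPM in the mutants, *Mei4* from 7.09 to 12.9 and 5.68 to 11.0 CPM, *Zcwpw1* from 114 to 184 and 92.7 to 138 CPM, and *Hells* from 298 to 495 and 267 to 432 CPM.

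The spread of the genes within Thy1+ groups went with the make-up of the libraries. Control replicate 1 was the lowest library of its group for 9 of 9 genes, and it had 472 CPM of differentiating markers against 1000 and 764 CPM in replicates 2 and 3, and 553 CPM of Sertoli markers against 119 and 125 CPM. Mutant replicate 2 was the highest library of its group for 8 of 9 genes, all but *Prdm9*, and had 922 CPM of differentiating markers against 498 and 594 CPM. The summed germ cell markers were 1490 to 2200 CPM in the controls and 1120 to 1840 CPM in the Thy1+ mutants, and the Sertoli markers 119 to 553 and 241 to 747 CPM. The summed markers of undifferentiated spermatogonia did not overlap, with 350 to 491 CPM in the controls and 272 to 307 CPM in the Thy1+ mutants. Of the single markers *Gfra1*, *Zbtb16* and *Id4* did not overlap, whereas *Etv5* and *Thy1* did, and the mean of *Thy1* was higher in the mutants (12.6 and 14.6 CPM). By edgeR 0 of 5 were called lower, or 3 of 5 with the replicate number as a block, against 4.92% of all genes with that block. The part of these markers in the differences between genotypes was not tested. Scaled to germ cell markers, which moved the median of all genes by 0.42, 0 of 9 genes were called by edgeR and 1 had an unadjusted p under 0.05: *Prdm9* had a log2 fold change of −1.43 (FDR = 0.379), while *Mei4* (0.06) and *Hells* (0.15) turned above 0.

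**Figure D3:**
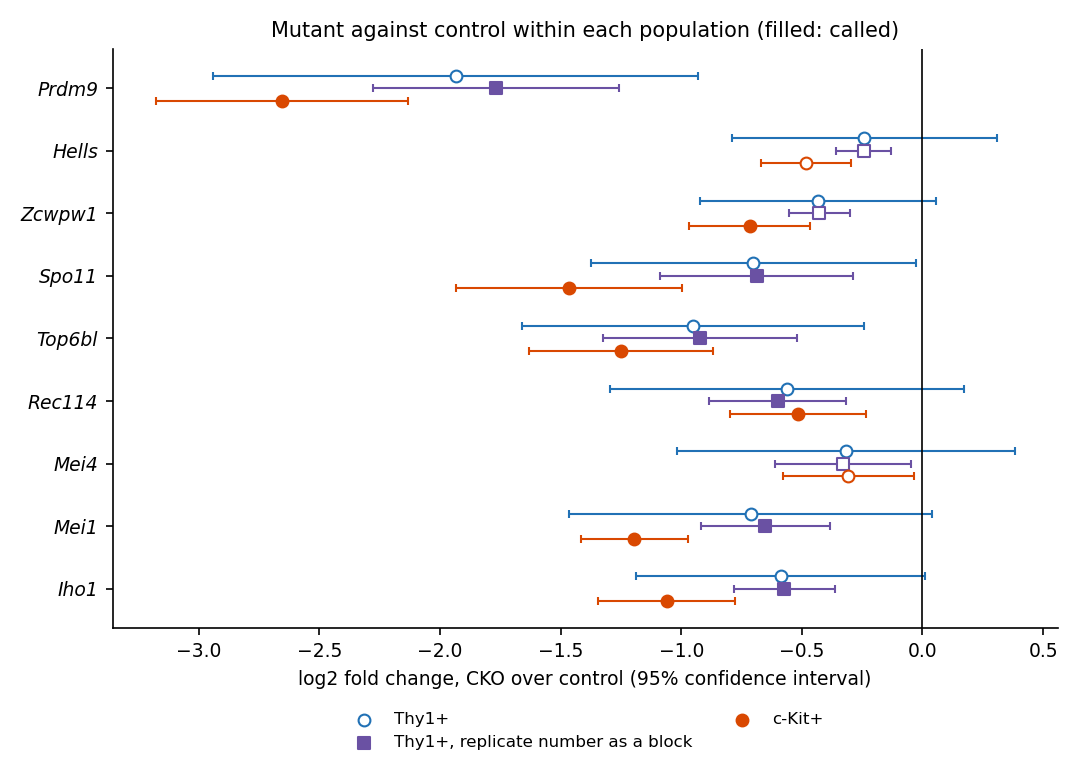
Log2 fold change (mutant over control) of each gene in Thy1+ cells, without and with the replicate number as a block, and in c-Kit+ cells, with 95% confidence intervals from edgeR; filled symbols are called. *Prdm9* lies farthest to the left in both populations, at −1.93 and −2.66, and all estimates are below 0.

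Whether the effect of genotype differed between the populations was tested in a fit of all 12 libraries. By edgeR's quasi-likelihood test 0 of 9 genes were called, as was 0% of 18002 genes, and none of the 9 had an unadjusted p under 0.05. DESeq2 also called 0 of 9, with 1 unadjusted p under 0.05, and 0.328% of all genes. The change in c-Kit+ cells minus that in Thy1+ cells was −0.66 for *Prdm9* (95% confidence interval −1.84 to 0.52, FDR = 0.732, edgeR) and −0.70 for *Spo11* (−1.51 to 0.11, FDR = 0.559, edgeR), the gene with the lowest p. For *Mei4* it was 0.07 (−0.66 to 0.81) and for *Rec114* 0.11 (−0.68 to 0.90). These intervals are wide enough to hold both no difference and a difference as large as most of the changes themselves, and no difference between the populations was called for any of the 9. With the replicate number as a block 2.48% of all genes were called, 24 lower and 422 higher, and 0 of the 9, of which 2 had an unadjusted p under 0.05: *Spo11* (−0.66, 95% confidence interval −1.29 to −0.02, FDR = 0.264) and *Iho1* (−0.40, −0.78 to −0.01, FDR = 0.27, edgeR). Of all 18002 genes, 1804 had an unadjusted p under 0.05 by edgeR without the block and 3198 with it. The numbers did not clearly pair the mutant libraries between the populations, so the blocked fit is given as an alternative. Both genotype comparisons have their own control and mutant libraries. The Thy1+ cells were taken from those left by the c-Kit beads, so same-numbered libraries of both populations may come from the same pups. Whether they do is not stated, and the fit without a block does not use it.

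In control mice most of the genes were higher in c-Kit+ than in Thy1+ cells. By edgeR's quasi-likelihood test over 17350 genes, 8 of 9 were called higher, while 7.08% of all genes were called higher in c-Kit+ cells, and control libraries of the 2 populations did not overlap for any of the 9, which held in this direction for 24.8% of all genes. *Prdm9* rose most, from a mean of 26.0 ± 14.2 to 74.6 ± 25.2 CPM (log2 fold change 1.50, SE 0.44, FDR = 0.0269, edgeR). *Mei1* rose from 35.5 ± 14.2 to 84.8 ± 9.54 CPM (1.24), *Spo11* from 5.80 ± 1.65 to 11.7 ± 3.60 CPM (0.99), *Iho1* from 40.0 ± 11.6 to 80.5 ± 15.9 CPM (0.99) and *Top6bl* from 11.5 ± 3.77 to 21.9 ± 4.93 CPM (0.91). *Hells* (0.76), *Mei4* (0.69) and *Zcwpw1* (0.69) were called with smaller changes, and *Rec114* (0.46, FDR = 0.0825, edgeR) was not called. Leaving out c-Kit+ control library 2 left 3 calls, and leaving out c-Kit+ control library 3 left 5. *Prdm9* lost its call in either case (1.24, FDR = 0.0968, and 1.51, FDR = 0.0677, edgeR). Scaling to germ cell markers moved the median of all genes by −0.45 and their calls from 3594 lower and 1229 higher to 6032 lower and 124 higher. With it 2 of 9 were called, against 0.715% of all genes: *Prdm9* (1.09) and *Mei1* (0.82). Of the 7 germ cell markers, 3 were themselves called higher in c-Kit+ cells between controls (7.08% of all genes). Between mutants it was 2 (5.03% of all genes), so the scale takes up their own difference. Scaled by library size only, 63.7% of the calls over all genes were lower in c-Kit+ cells in place of 74.5%, and 8 of 9 genes were called higher.

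In mutant mice the estimated step between the populations was smaller than in control mice for 7 of 9 genes. By edgeR's quasi-likelihood test over 17346 genes, 5 of 9 were called higher in c-Kit+ cells, against 5.03% of all genes: *Prdm9* (0.82, SE 0.18, FDR = 0.0125), *Mei1* (0.79), *Mei4* (0.74), *Hells* (0.56) and *Iho1* (0.55). *Prdm9* rose from 6.80 ± 0.930 CPM in Thy1+ to 12.3 ± 2.32 CPM in c-Kit+ mutant libraries, 1.81 times, against 2.87 times in control mice. Mutant c-Kit+ cells thereby had 47.4% of the mean level of *Prdm9* in control Thy1+ cells, 75.9% for *Spo11* and 83.1% for *Top6bl*, and between 100.3% and 137% for the other 6 genes. *Spo11* had 2.82, 4.46 and 3.34 CPM in Thy1+ and 4.78, 4.38 and 4.05 CPM in c-Kit+ mutant libraries, which overlapped (0.27, FDR = 0.393, edgeR). *Rec114* also overlapped (0.55), and *Top6bl* (0.65) and *Zcwpw1* (0.45) did not but were not called. In all, 7 of 9 genes had mutant c-Kit+ libraries above all mutant Thy1+ libraries, against 26.7% of all genes. The difference between these steps is the same quantity as the difference between the genotype effects above, which was not called for any gene.

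The count in mutants depended on single libraries. The number called was 2 without mutant Thy1+ replicate 1, 8 without mutant Thy1+ replicate 2 and 1 without mutant Thy1+ replicate 3, and it was 2 without mutant c-Kit+ replicate 1, 2 or 3. Scaled to germ cell markers, which moved the median of all genes by −0.55 and their calls from 2653 lower and 872 higher to 4457 lower and 64 higher, 0 of 9 were called by edgeR (0.369% of all genes) and 0 had an unadjusted p under 0.05, and *Spo11* (−0.23) and *Zcwpw1* (−0.05) turned below 0. Scaled by library size only, 63.3% of the calls over all genes were lower in c-Kit+ cells in place of 75.3%, and 7 of 9 genes were called higher.

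**Figure D4:**
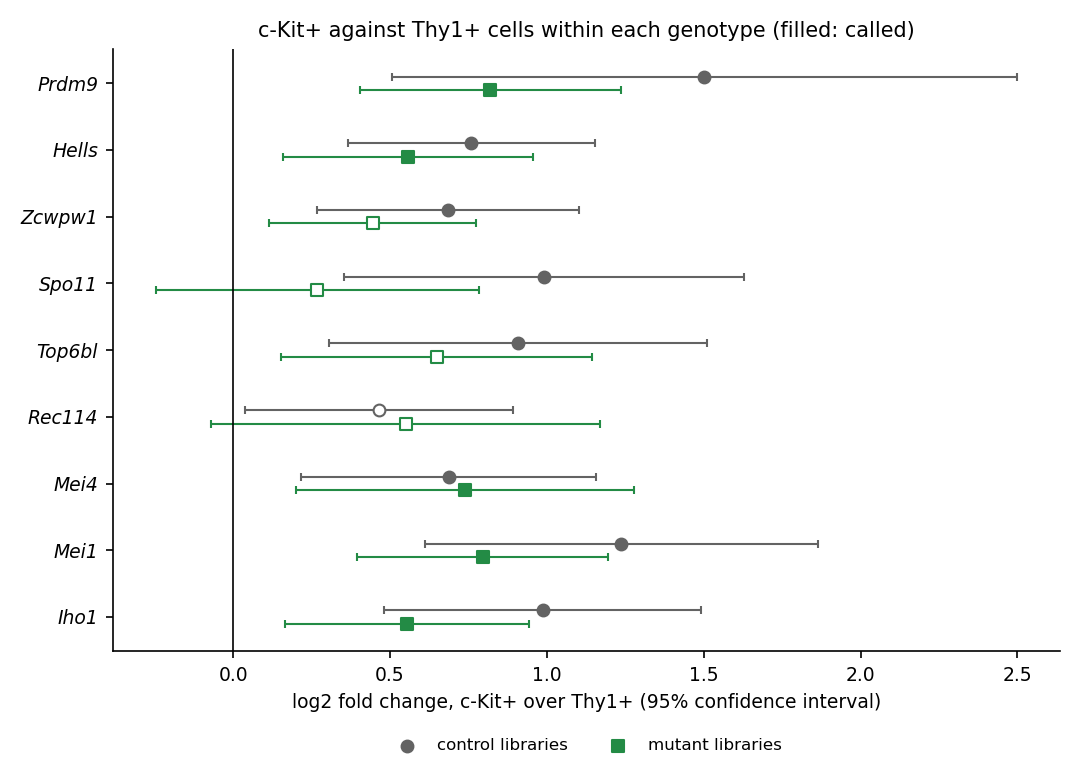
Log2 fold change (c-Kit+ over Thy1+ cells) of each gene in control and in mutant mice with 95% confidence intervals from edgeR; filled symbols are called. Control estimates run from 0.46 (*Rec114*) to 1.50 (*Prdm9*) and mutant estimates from 0.27 (*Spo11*) to 0.82 (*Prdm9*).

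The wider machinery of recombination was described with lists of 33 other genes, of which 32 were tested. In mutant c-Kit+ cells 20 of them were called lower and 0 higher by edgeR, while 7.41% of all genes tested were called lower. All 8 genes of the chromosome axis, the scaffold on which breaks are made, were called lower, among them *Rad21l* (−2.40), a meiotic cohesin subunit, and *Sycp2* (−1.91), an axis protein. Of 10 genes of strand exchange, the step in which broken ends find the partner chromosome, 7 were called lower, with *Meiob* (−3.69) and *Dmc1* (−1.72) changing most. *Meiob*, which encodes a single-strand DNA binding factor, had 5.39 to 14.9 CPM in the controls and 0.376 to 1.12 CPM in the mutants. All 3 tested regulators of meiotic entry were called lower, with *Meioc* at −3.04 and its partner *Ythdc2* at −0.88.

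Genes that handle DNA ends after cutting and those that work beside PRDM9 moved less. Of 6 genes of break processing 1 was called lower, *Atm* (−0.66), the kinase that limits the number of breaks. The next largest change was that of *Rbbp8* (−0.38, FDR = 0.0036, edgeR), which starts resection and was not called because it was under the minimum size. Of 5 hotspot partners 1 was called lower, *Zcwpw2* (−0.59, FDR = 0.041, edgeR). This paralog of *Zcwpw1* had 4.72 to 7.64 CPM in the controls and 3.74 to 4.46 CPM in the mutants. *Cxxc1*, whose product binds PRDM9, had −0.46 (FDR = 3.0e-04, edgeR) and was likewise under the minimum size. Somatic markers were higher in the mutant c-Kit+ libraries, and their part in the smaller changes of these lists was not tested. In mutant Thy1+ cells 0 of 32 genes were called by edgeR, and 16 were called lower with the replicate number as a block, 8 of them axis genes. With that block 4.92% of all genes were called lower.

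The genes whose log2 CPM profile over the 12 libraries, centred on its own mean, came closest to that of *Prdm9* among 18002 genes were *Dpep3*, *Gm7972*, *Ugt8a*, *Terb1* and *Majin*. Their root mean square difference from *Prdm9* was 0.305 to 0.336 on the log2 scale, whereas *Prdm9* itself varied by 1.35 around its mean. *Dpep3* had group means of 43.2 CPM in control Thy1+, 11.6 CPM in mutant Thy1+, 106 CPM in control c-Kit+ and 14.6 CPM in the c-Kit+ mutants. *Terb1* (12.4, 4.10, 30.5 and 7.08 CPM in the same order) and *Majin* (8.17, 2.44, 22.2 and 3.13 CPM) encode proteins that attach meiotic telomeres to the nuclear envelope.

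The profile of *Spo11* was closest to those of *Sycp1*, *1700001L05Rik*, *Stag3*, *Dmc1* and *Ccdc158*, at 0.135 to 0.179, with *Spo11* itself varying by 0.696 around its mean. *Sycp1*, a synaptonemal complex gene, had 159, 89.1, 318 and 129 CPM in the same order of groups, and *Stag3*, a meiotic cohesin subunit, had 258, 149, 472 and 216 CPM. *Prdm9* and *Spo11* thus had different nearest genes, and no other gene of the break-forming group was among the nearest 5 of either. All profiles share the same libraries and their differences in cell make-up.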

How the data were processed

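RNA-seq was analysed in 12 libraries of sorted spermatogonia, and the 30 ChIP-seq samples were not used here. The members and gene lists were chosen with earlier results of these data known. The authors used Trimmomatic 0.39 for trimming, HISAT2 2.1.0 for alignment to mm10 and featureCounts (2.0.3 per the file header) for counting on RefSeq exons. The counts were deposited raw, without use of strand and with each read of a pair counted.

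Genes were named by gene ID, tested with edgeR 4.0.16 in R 4.3.3 (filterByExpr, TMM, quasi-likelihood F test, Benjamini-Hochberg adjustment over all genes tested), and called at FDR under 0.05 where the log2 fold change also exceeded 0.5 in size. The interaction was called at FDR under 0.05 alone. Only the groups compared entered a fit, and all 12 libraries entered the interaction. Levels are CPM on 1 TMM scale over 12 libraries, and all statements on overlap use it. The steps were tested on simulated data. Same-numbered libraries correlated, after subtraction of group means, at 0.269 to 0.494 in Thy1+, 0.101 to 0.124 in c-Kit+ and 0.134 to 0.298 between controls. Different-numbered libraries had −0.388 to −0.0399, −0.0654 to −0.0386 and −0.279 to 0.0864 in the same order. The numbers were therefore taken to pair the libraries there (every same-numbered value over 0.1). That limit is arbitrary, and c-Kit+ lay just above it. Between mutants same-numbered (0.022 to 0.203) and different-numbered values (−0.157 to 0.0854) overlapped, and no pairing was taken. The reported fits have no block, and the blocked values stand beside a result where they change it. Named were all members, *Chd8*, at most 2 genes per pathway list by size of change in c-Kit+ cells, and the 5 nearest profiles to *Prdm9* and to *Spo11*. Alternatives were the edgeR exact test, DESeq2 1.42.0, other scalings and filters, a fit of all 12 libraries, the replicate block and leaving out each library.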

Additional observations from a re-analysis of the deposited data

How the results depend on the processing

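The number of genes called lower in c-Kit+ cells was 7 in the fit reported, 6 in the fit of all 12 libraries, where *Rec114* was not called, 5 with scaling to germ cell markers and 6 to 8 with 1 library left out. In Thy1+ cells it was 0, and 1 with the edgeR exact test, DESeq2 or the fit of all 12 libraries, 0 to 1 with 1 library left out (1 without control replicate 1), and 6 with the replicate block. Between controls it was 8, and 2 with scaling to germ cell markers and 3 to 9 with 1 library left out. Between mutants it was 5, and 0 with scaling to germ cell markers, 3 in the fit of all 12 libraries, 7 with the replicate block, which the correlations did not justify there, and 1 to 8 with 1 library left out. The interaction gave 0 of the 9 genes throughout. Of the 32 genes on pathway lists, an alternative set added after the data were seen called 8 lower in Thy1+ cells by the exact test, 8 by DESeq2, 5 in the fit of all 12 libraries, 16 with the replicate block, and 0 to 1 with 1 library left out. In c-Kit+ cells, 15 to 26 were called over all alternatives. In c-Kit+ cells and between controls the replicate block changed no call of the 9 genes. Of the other lists it changed Leydig (3 to 5) and macrophage markers (0 to 2 called higher) in c-Kit+ cells, and Leydig markers (4 to 5) and break processing (3 to 4 called higher) between controls. The cause of these changes was not tested.

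Among the values for single genes, 16 changed sign. With scaling to germ cell markers these were *Mei4* (0.062) and *Hells* (0.15) in Thy1+ cells, *Mei4* (0.044) in c-Kit+ cells, *Spo11* (−0.23) and *Zcwpw1* (−0.054) between mutants, and the interaction of *Mei4* (−0.018). The interaction of *Mei4* was also −0.0062 with DESeq2 and −0.0071 with its size factors. With 1 library left out, the interaction ran from −0.23 to 0.37 for *Mei4*, −0.17 to 0.52 for *Rec114*, −0.44 to 0.014 for *Top6bl* and −0.48 to 0.075 for *Hells*. *Spo11* had 103 to 554 counts a library. *Spo11* was 0.534 times *Top6bl* in CPM and 0.688 times per length.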
